A study of Mus musculus with 12 samples.

Results

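The 10 genes described here encode the adaptors, ubiquitin ligases, kinase and ubiquitin-editing enzymes that carry the signal of the receptor CD40 inside the cell: Traf1, Traf2, Traf3, Traf5, Traf6, Map3k14, Birc2, Birc3, Tnfaip3 and Cyld. They were chosen by name, and their 58 transcript rows of 136288 were summed to 10 genes of 53458. The libraries are bulk RNA-seq of mouse cDC1, the conventional dendritic cells that hand antigen from dead cells to CD8 T cells. They came from inguinal lymph nodes, in a design that crossed a subcutaneous KPC tumor (in this field, a pancreatic cancer model) with a stimulus of CD40 that the labels name only as CD40 agonist. The NoTumor-NoCD40 mice had neither, the NoTumor-CD40 mice had the agonist alone, the Tumor-NoCD40 mice had the tumor alone and the Tumor-CD40 mice had both, with 3 libraries in each of the 4 groups. Strain, age, dose, time of treatment, tumor size and sort gates are not stated in the labels, and it is not stated whether the libraries of a group came from separate animals, so the tests weigh differences against a spread between libraries that may be technical.

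CD40 has no enzyme activity of its own and signals by gathering TRAF proteins at its cytoplasmic tail. In the resting cell, TRAF3 and TRAF2 bring the ubiquitin ligases cIAP1 (gene Birc2) and cIAP2 (gene Birc3) to the kinase NIK (gene Map3k14), which is degraded; receptor engagement breaks up this complex, NIK accumulates, and the non-canonical NF-kB pathway starts. TRAF6 and TRAF2 also feed the canonical NF-kB and MAP kinase pathways through ubiquitin chains that A20 (gene Tnfaip3) and CYLD take apart, and in dendritic cells CD40 signaling is best known for driving maturation.

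Library totals ran from 22855143 to 27163393 expected counts. All 10 genes passed the filter on low counts among the 18095 genes tested. All 12 genes of a cDC1 marker list were detected, but their level was uneven: Xcr1, the chemokine receptor that defines cDC1, was at 515 to 780 CPM (counts scaled to the normalized library size) in NoTumor-NoCD40 and at 49.5 CPM in library 3 of NoTumor-CD40 and 73.1 CPM in library 3 of Tumor-NoCD40. Clec9a (52.1 and 33.2 CPM, against 201 to 316 CPM) and Tlr3 (10.9 and 17.7 CPM, against 145 to 220 CPM) fell as well. Irf8, Itgae, Cadm1, Wdfy4, Cd8a and Naaa were also below the NoTumor-NoCD40 range in both libraries. Batf3, Flt3 and Zbtb46 of the list did not fall to this degree. Zbtb46 was at 175 and 127 CPM, against 161 to 186 CPM. Batf3 was at 161 and 87.7 CPM in those libraries, against 87.7 to 99.3 CPM in NoTumor-NoCD40. Flt3 was at 638 and 596 CPM there, against 626 to 682 CPM. Both of those libraries stood high in a list of 13 mature dendritic cell genes (Ccr7, Fscn1, Cd83 and others, with the 2 members that the full list of 16 contains, Traf1 and Birc3, and Relb left out), which summed to 27304 and 18364 CPM there. Library 2 of Tumor-NoCD40 was at the other end, with 5554 CPM for the mature list and 11954 CPM for the cDC1 list. Of the lists for other cells, the B cell list (16 genes) ranged from 155 to 438 CPM in 9 libraries and from 1059 to 2767 CPM in the 3 Tumor-CD40 libraries. Summed CPM over the 12 libraries ranged from 153 to 918 for T cells, 170 to 647 for plasmacytoid dendritic cells, 161 to 595 for monocytes, 188 to 1194 for Langerhans cells, 46.1 to 187 for cDC2, 77.2 to 155 for NK cells, 63.1 to 314 for plasma cells, 18.6 to 130 for macrophages, 18.0 to 82.0 for endothelial and stromal cells and 0.9 to 33.8 for neutrophils. Only Vsig4 of the macrophage list was at 0 in all 12 libraries. In bulk RNA, fewer cells of a type and less RNA per cell cannot be told apart, and the part of these differences in the results of the 10 genes was not tested.

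Each member is annotated as protein-coding in GRCm38. Traf1 (ENSMUSG00000026875) spans chr2:34941750-34961772 on the minus strand, Traf2 (ENSMUSG00000026942) chr2:25517982-25546940 on the minus strand and Traf6 (ENSMUSG00000027164) chr2:101678429-101701669 on the plus strand. Birc2 (ENSMUSG00000057367) and Birc3 (ENSMUSG00000032000) lie near each other on the minus strand, at chr9:7818227-7837064 and chr9:7848699-7873186. Traf3 (ENSMUSG00000021277) is at chr12:111166370-111267153 on the plus strand and Traf5 (ENSMUSG00000026637) at chr1:191997205-192092559 on the minus strand. Map3k14 (ENSMUSG00000020941) is at chr11:103219762-103267472 on the minus strand, Tnfaip3 (ENSMUSG00000019850) at chr10:19000910-19015657 on the minus strand and Cyld (ENSMUSG00000036712) at chr8:88697028-88751945 on the plus strand. Genes that overlap Traf2, Traf3, Traf5, Map3k14 and Cyld in the annotation had a mean of at most 0.295 CPM.

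The promoters of the members were read for the kappa-B consensus, the DNA motif that NF-kB dimers bind. RefSeq windows of GRCm38.p6 from 250 bases before to 50 bases after the start were found for all 10 members (12 windows). A match on either strand lay in 3 of the 12 windows, 1 each of Traf3, Tnfaip3 and Cyld, against 8.459% of all 32851 windows, and none lay in the window of Traf1. The 250 bases before the start are shown for Traf1, Traf3 and Cyld. For Tnfaip3 the 137 bases next to the RefSeq start are shown, up to an exon of the GENCODE annotation, whose gene span begins further upstream. All are read 5′ to 3′ along the gene, with the kappa-B matches in capitals. Positions are counted backward from the RefSeq start, with -1 the last base before it.
Traf1, chr2:34961773-34962022, minus strand: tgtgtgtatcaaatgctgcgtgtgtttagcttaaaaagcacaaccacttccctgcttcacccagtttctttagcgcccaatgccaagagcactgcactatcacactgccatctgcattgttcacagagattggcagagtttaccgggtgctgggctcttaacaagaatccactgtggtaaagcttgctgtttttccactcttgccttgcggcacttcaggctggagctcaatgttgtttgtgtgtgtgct
Traf3, chr12:111166120-111166369, plus strand: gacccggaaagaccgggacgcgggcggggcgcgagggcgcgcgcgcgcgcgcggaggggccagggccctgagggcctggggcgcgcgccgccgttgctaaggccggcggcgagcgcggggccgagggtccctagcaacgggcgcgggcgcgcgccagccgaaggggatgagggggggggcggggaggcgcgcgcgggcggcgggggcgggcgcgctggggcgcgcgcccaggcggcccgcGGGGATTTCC
Tnfaip3, chr10:19015411-19015547, minus strand: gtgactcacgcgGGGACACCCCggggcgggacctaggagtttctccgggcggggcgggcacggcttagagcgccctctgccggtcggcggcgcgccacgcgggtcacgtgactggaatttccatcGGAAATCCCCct
Cyld, chr8:88696778-88697027, plus strand: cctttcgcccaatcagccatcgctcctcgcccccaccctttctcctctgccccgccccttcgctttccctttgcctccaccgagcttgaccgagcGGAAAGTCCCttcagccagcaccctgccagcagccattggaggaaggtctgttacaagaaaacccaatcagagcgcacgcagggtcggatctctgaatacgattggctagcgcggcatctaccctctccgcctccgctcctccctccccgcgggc
The Traf3 match, GGGGATTTCC, ends at the last base before the start (-10 to -1). Tnfaip3 has GGGACACCCC at -125 to -116 and, on the opposite strand, GGGGATTTCC at -12 to -3, which is GGAAATCCCC as printed along the gene. The Cyld match, GGGACTTTCC, is on the opposite strand at -155 to -146. Tnfaip3 is also the only member with TGACTCA, a motif of AP-1 factors found in 5.202% of all windows, at -136 to -130, clear of the kappa-B match next to it. A match is a stretch of letters, and no match says only that the letters are not in this window.

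On the length-scaled TPM scale, Traf1 and Birc3 were the most abundant members in NoTumor-NoCD40, at 225 ± 50.9 TPM and 218 ± 23.3 TPM (SD, n = 3), and their libraries overlapped. Birc2 (63.8 ± 13.8 TPM) and Tnfaip3 (42.3 ± 5.56 TPM) came next, each apart from the gene above it. Traf5 (34.3 ± 9.46 TPM) overlapped with Tnfaip3, and Cyld (23.2 ± 0.787 TPM) and Traf2 (16.6 ± 1.25 TPM) lay below both. The lowest were Map3k14 (12 ± 4.05 TPM), Traf6 (8.95 ± 1.71 TPM) and Traf3 (7.60 ± 0.408 TPM), so the kinase NIK and the adaptor that restrains it were both near the bottom of the order; each of these overlapped with its neighbor in the order. Traf1 was also highest in the other 3 groups, at 642 ± 273 TPM in NoTumor-CD40, 334 ± 158 TPM in Tumor-NoCD40 and 433 ± 73.9 TPM in Tumor-CD40, with libraries apart from those of Birc3 in both groups given the agonist. The place of Traf5, an adaptor related to TRAF3 and TRAF2, depended on short transcript rows: with only protein-coding rows of at least 1500 bases, a limit chosen after the values were seen, Traf5 was lowest at 4.29 ± 1.81 TPM, while Traf1 (89.1 ± 16.0 TPM) and Birc3 (81.6 ± 11.4 TPM) stayed highest.

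**Figure D1:**
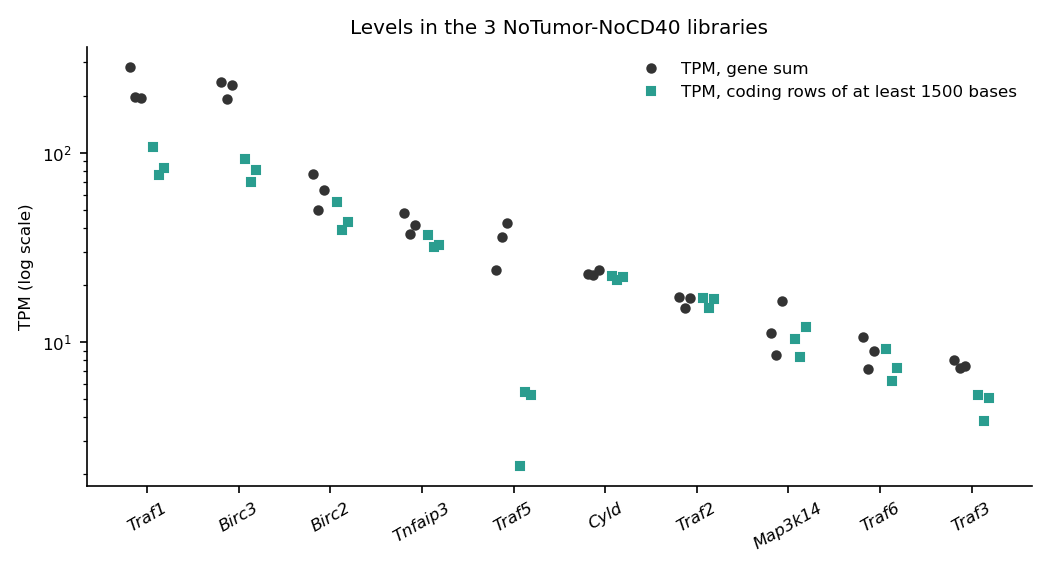
TPM of the 10 genes in the 3 NoTumor-NoCD40 libraries, on a log axis, as the sum over all transcript rows (circles) and over protein-coding rows of at least 1500 bases (squares); each point is 1 library. Traf1 and Birc3 lie highest by both sums, and Traf5 drops from 34.3 to 4.29 TPM.

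For most members the extremes fell in the same libraries. Library 3 of NoTumor-CD40 held the highest value of 8 members, and library 2 of Tumor-NoCD40 held the lowest value of 6. How many of all genes tested had their extremes in these libraries was not counted, so these counts do not set the members apart. Map3k14 and Traf5 were the 2 members whose highest value lay elsewhere. From the lowest to the highest library, Traf1 spanned 4.65-fold and Birc2 4.05-fold, against 1.57-fold for Traf5 and 1.52-fold for Cyld.

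**Figure D2:**
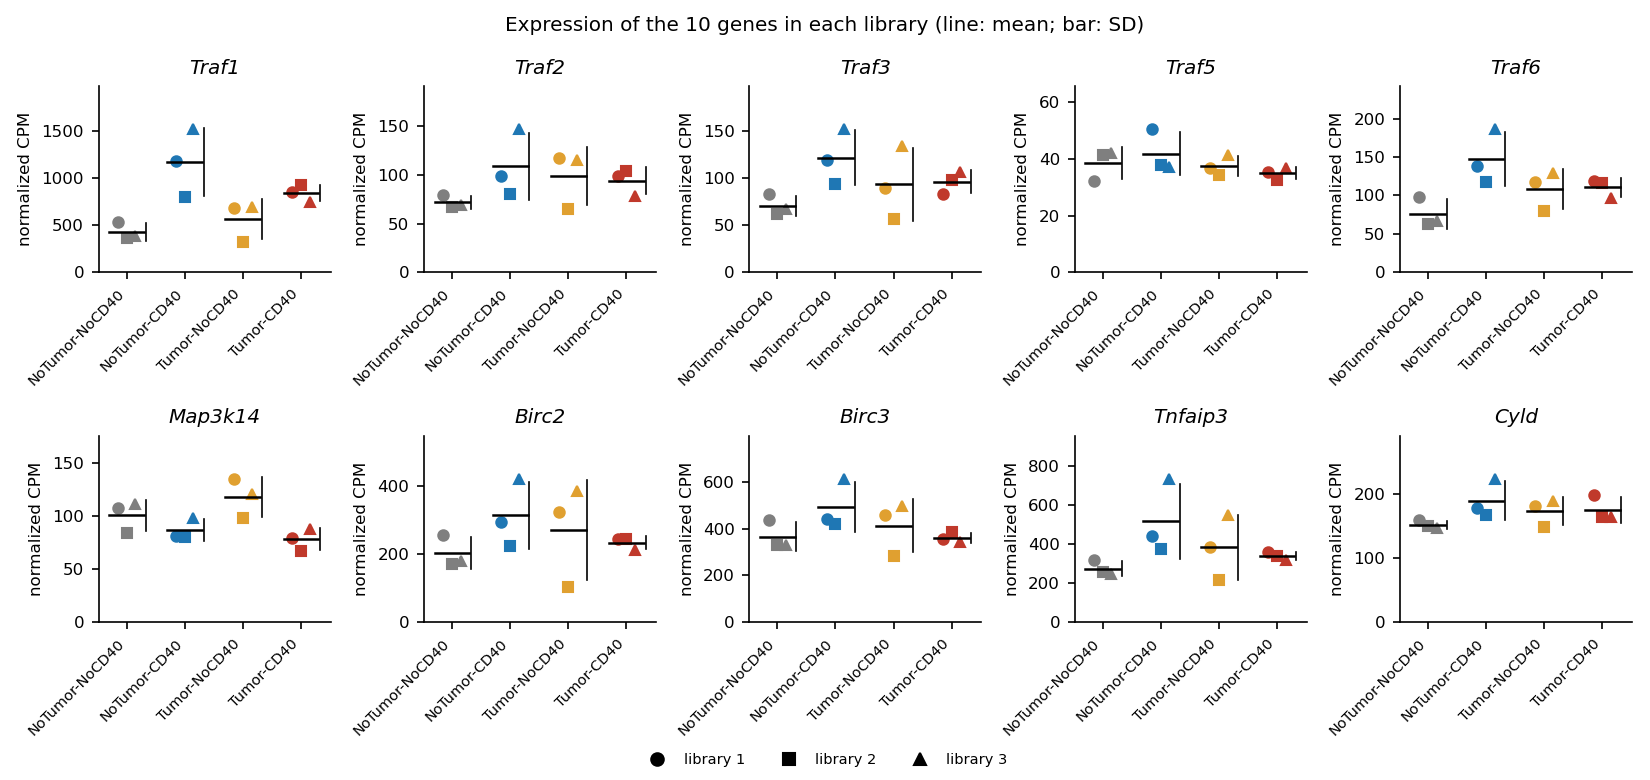
Normalized CPM of each of the 10 genes in each library, by group; symbols mark library 1, 2 and 3, the horizontal line is the mean and the vertical bar the SD (n = 3), and each panel starts at 0. Traf1 in NoTumor-CD40 ran from 806 to 1526 CPM, above all 3 NoTumor-NoCD40 libraries, and Map3k14 was lowest in Tumor-CD40.

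Without a tumor, Traf1 rose with the agonist; it encodes an adaptor that pairs with TRAF2 and is itself a known NF-kB target gene. Traf1 was at 536, 370.5 and 386 CPM in NoTumor-NoCD40 and at 1187, 806 and 1526 CPM in NoTumor-CD40. Every library with the agonist lay above every library without it. The log2 fold change was 1.45 ± 0.29 (SE), a 2.72-fold rise (edgeR quasi-likelihood test, Benjamini-Hochberg adjusted p = 0.0277). Traf1 was 1 of 10 members past the threshold of 0.05, against 1.44% of all genes tested. The call was lost when 1 library was left out, in 4 cases: library 2 of NoTumor-NoCD40 (log2 fold change 1.36, adjusted p = 0.156), library 3 of NoTumor-NoCD40 (1.37, 0.163), library 1 of NoTumor-CD40 (1.47, 0.0875) and library 3 of NoTumor-CD40 (1.21, 0.151). It was also lost with limma on log2 TPM, at adjusted p values of 0.119 to 0.281 over 3 settings. An edgeR fit with the number at the front of the sample titles as a block lost it as well (1.25, adjusted p = 0.086).

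The other adaptors did not pass the test in this comparison. Traf6, which links CD40 and toll-like receptors to the kinase TAK1, was at 98.3, 63.3 and 66.7 CPM without and 138, 117 and 186 CPM with the agonist. These libraries did not overlap, and the log2 fold change was 0.95 ± 0.23 (edgeR adjusted p = 0.0618). Traf6 passed the threshold without library 2 of NoTumor-CD40 (adjusted p = 0.0257) and without library 2 of Tumor-NoCD40 (0.0252), with DESeq2 (0.00792) and without the filter on low counts (0.0417). Without library 3 of NoTumor-CD40 its adjusted p was 0.352. Traf3, the adaptor that marks NIK for degradation, was at 82.9, 62.5 and 67.8 CPM without and 120, 93.6 and 152 CPM with the agonist (log2 fold change 0.78 ± 0.27, adjusted p = 0.16). Traf2, which brings the cIAP ligases to the receptor, was at 79.3, 67.5 and 68.9 CPM without and 98.4, 80.5 and 147 CPM with the agonist (0.60 ± 0.25, adjusted p = 0.229). For Traf3 and Traf2, too, each library with the agonist was above each without it, in Traf2 by a narrow margin. Without library 3 of NoTumor-CD40 the log2 fold change of Traf2 was 0.32 (adjusted p = 0.698). Traf5 was at 32.2, 41.5 and 42.1 CPM without and 50.5, 37.9 and 37.1 CPM with the agonist, with the groups overlapping (0.12 ± 0.18, adjusted p = 0.775).

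Among the ligases, the kinase and the ubiquitin-editing enzymes, Tnfaip3 showed the largest difference without passing the test. Tnfaip3, whose product A20 ends NF-kB signaling, was at 319, 256 and 246 CPM in NoTumor-NoCD40 and at 442, 373 and 733 CPM in NoTumor-CD40 (log2 fold change 0.91 ± 0.30, edgeR adjusted p = 0.143). The groups did not overlap, and library 3 of NoTumor-CD40 stood far above the other 2. Tnfaip3 passed the threshold without library 2 of Tumor-NoCD40, a library outside this contrast but in the fit (adjusted p = 0.0442). Without library 3 of NoTumor-CD40 its log2 fold change was 0.57 (adjusted p = 0.579). Birc2 was at 258, 170.5 and 180.1 CPM without and 295, 225 and 421 CPM with the agonist (0.63 ± 0.36, adjusted p = 0.372). Birc3 was at 436, 329 and 332 CPM without and 442, 419 and 613 CPM with the agonist (0.43 ± 0.22, adjusted p = 0.319). For both cIAP genes the groups overlapped. Cyld, a deubiquitinase that restrains canonical NF-kB signaling, was at 158, 150.1 and 146 CPM without and 178, 166 and 223 CPM with the agonist (0.32 ± 0.16, adjusted p = 0.315), with no overlap. Map3k14 was the only member below 0, at 107, 84.1 and 111 CPM without and 80.8, 80.2 and 98.5 CPM with the agonist (-0.22 ± 0.18, adjusted p = 0.539), and the groups overlapped. With library 3 of NoTumor-CD40 left out, Birc2 was at 0.36, Birc3 at 0.24 and Cyld at 0.18 on the log2 scale.

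Without a tumor, 9 of the 10 members were thus above 0, with a median log2 fold change of 0.61 against -0.04 over all genes tested. The groups were apart and higher for 6 members, against 11.2% of all genes tested, and apart and lower for none, against 12%. At an unadjusted p under 0.05 there were 5 members, against 18.4% of all genes. The sum of the mature list moved with these genes: it was 10459.5, 6137 and 4293 CPM in NoTumor-NoCD40 and 20056, 11696 and 27304 CPM in NoTumor-CD40, also without overlap. Within it, Socs2, Samsn1, Cacnb3 and Tmem176a overlapped (Tmem176a at 159 to 450 CPM against 296 to 439 CPM). Its other genes were apart and higher. The cDC1 list went the other way, at 7661, 10568 and 10199 CPM without and 5220, 8672 and 3274 CPM with the agonist, with library 2 of NoTumor-CD40 inside the range of the controls. Batf3 of that list was apart and higher with the agonist (87.7 to 99.3 CPM against 121 to 161 CPM). Of the lists for other cells, 2 were apart and higher with the agonist, plasmacytoid dendritic cells (169.9 to 254 CPM against 310 to 589 CPM) and endothelial and stromal cells (19.5 to 23.2 CPM against 25.9 to 43.1 CPM). In the former, Spib (22.7 to 68.9 CPM against 144 to 369 CPM) and Runx2 were apart and higher. Siglech overlapped, and Ccr9 was apart and lower (38.3 to 50.5 CPM against 8.8 to 34 CPM). In the latter, Kdr was apart and higher (1.27 to 3.48 CPM against 6.26 to 21.8 CPM) and Pecam1 overlapped. The monocyte list (521 to 595 CPM against 161 to 398 CPM) and the macrophage list (97.3 to 115 CPM against 18.6 to 90.7 CPM) were apart and lower. In the monocyte list Ccr2 was lower (162 to 283 CPM against 7.93 to 92.4 CPM). Ly6c2 was apart and higher (9.18 to 14.8 CPM against 24.2 to 53.4 CPM), as was Fn1 at low levels. Cd68 held most of the macrophage sum (85.3 to 105 CPM against 10.2 to 83.3 CPM). Mertk was apart and higher, at no more than 2.66 CPM. The part of these marker differences in the members' values was not tested.

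**Figure D3:**
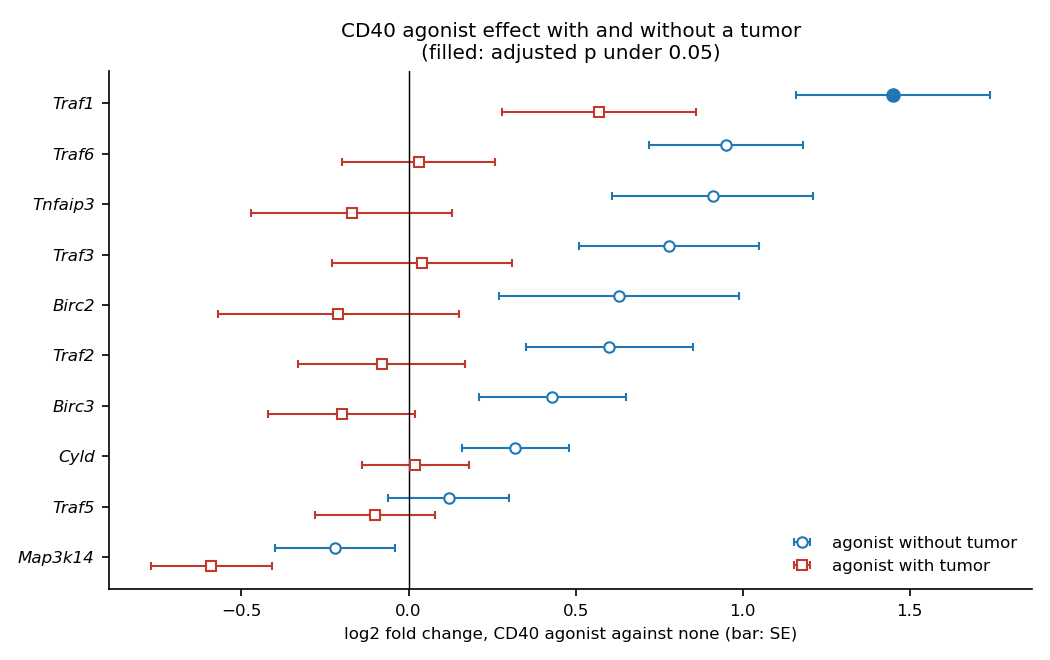
Log2 fold change with CD40 agonist against none for the 10 genes, without a tumor (blue circles) and with a tumor (red squares); bars are the SE of the edgeR fit and a filled symbol marks an adjusted p under 0.05. Only Traf1 without a tumor is filled, at 1.45, and each red square lies to the left of the blue circle of its gene.

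In mice with a tumor, the agonist gave no call among the 10 members with edgeR, against 0.685% of all genes tested. At an unadjusted p under 0.05 there was 1 member, Map3k14, against 9.96% of all genes, and DESeq2 and limma also called 0. Traf1 was at 683, 328 and 699 CPM in Tumor-NoCD40 and at 854, 929 and 752 CPM in Tumor-CD40 (log2 fold change 0.57 ± 0.29, adjusted p = 0.546). It was the 1 member of 10 whose libraries with the agonist were all higher in CPM, against 6.5% of all genes tested. For Traf1 in TPM summed over all rows the groups overlapped. With coding rows of at least 1500 bases they were apart (67.46 to 166 TPM against 174 to 213.3 TPM). Without library 2 of Tumor-NoCD40 the log2 fold change of Traf1 was 0.29. Map3k14, the gene of the kinase NIK, was at 135, 97.6 and 120 CPM in Tumor-NoCD40 and at 79.4, 66.8 and 87.4 CPM in Tumor-CD40. The Tumor-CD40 libraries were all lower in CPM, which was true of 1 member of 10 and of 5.41% of all genes tested. In TPM summed over all rows the groups overlapped by a narrow margin (11.1 to 18.49 TPM against 10.12 to 11.11 TPM). With coding rows of at least 1500 bases they were apart (10.04 to 13.91 TPM against 6.877 to 9.436 TPM). The log2 fold change of Map3k14 was -0.59 ± 0.18 (unadjusted p = 0.00533, edgeR adjusted p = 0.213).

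The other 8 members overlapped between Tumor-NoCD40 and Tumor-CD40, with log2 fold changes from -0.21 (Birc2) to 0.04 (Traf3). The Tumor-NoCD40 libraries were widely spread for most of them. Birc2 was at 325, 104 and 385 CPM in Tumor-NoCD40 and at 244, 245 and 212 CPM in Tumor-CD40. Tnfaip3 was at 384, 215 and 546 CPM in Tumor-NoCD40 and at 361, 336 and 320.1 CPM in Tumor-CD40. In both genes library 2 of Tumor-NoCD40 was lowest and library 3 highest, with the Tumor-CD40 libraries close together between them. Birc3 was at 458, 283 and 498 CPM and at 354, 384 and 341 CPM, in the same order of groups. Traf2 was at 118, 65.0 and 115 CPM and at 99.0, 104 and 78.4 CPM. Traf3 was at 89.98, 56.9 and 134 CPM and at 83.4, 98.8 and 107 CPM. Thus Birc3, Traf2 and Traf3 also had their lowest value in library 2 of Tumor-NoCD40. Traf6 was at 117, 79.5 and 129 CPM and at 119, 116 and 96.5 CPM. Traf5 was at 36.9, 34.2 and 41.3 CPM and at 35.4, 32.5 and 36.9 CPM. Cyld was at 180.1, 148 and 189 CPM and at 198, 163 and 163 CPM. Traf5 and Cyld were the flattest of the set.

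The median log2 fold change of the 10 members with a tumor was -0.09, against -0.02 over all genes tested. Here the sum of the mature list did not separate the groups: it was 15176, 5554 and 18364 CPM in Tumor-NoCD40 and 13721, 11267 and 10688 CPM in Tumor-CD40. Within the list, Cd274 (54.7 to 104 CPM against 186 to 243 CPM) and Cd80 (29.9 to 43.8 CPM against 67 to 91.4 CPM) were apart and higher. Its other genes overlapped. Markers of B cells did separate them, at 310, 254 and 155 CPM against 1143, 1059 and 2767 CPM. The plasmacytoid dendritic cell list was also apart, at 205 to 269 CPM and 516 to 647 CPM. Within it, Spib (42.8 to 103 CPM against 224 to 265 CPM), Bst2 (51.4 to 64.0 CPM against 76.9 to 106 CPM) and Ly6d, which is also in the B cell list (3.54 to 13.3 CPM against 63.7 to 188 CPM), were apart and higher, and Siglech, a receptor of those cells, overlapped at 0.763 to 5.62 CPM and 0.826 to 4.46 CPM. The plasma cell list (110 to 145 CPM against 160 to 314 CPM) and the endothelial and stromal list (18.0 to 29.1 CPM against 42.5 to 82.0 CPM) were apart and higher as well. In the plasma cell list, Mzb1 (2.56 to 15.1 CPM against 17.6 to 39.2 CPM) and Ighg2b were apart and higher. Xbp1 (49.4 to 92.3 CPM against 68.1 to 77.2 CPM) and Jchain overlapped. The part of these markers in the values of Traf1 and Map3k14 was not tested.

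**Figure D4:**
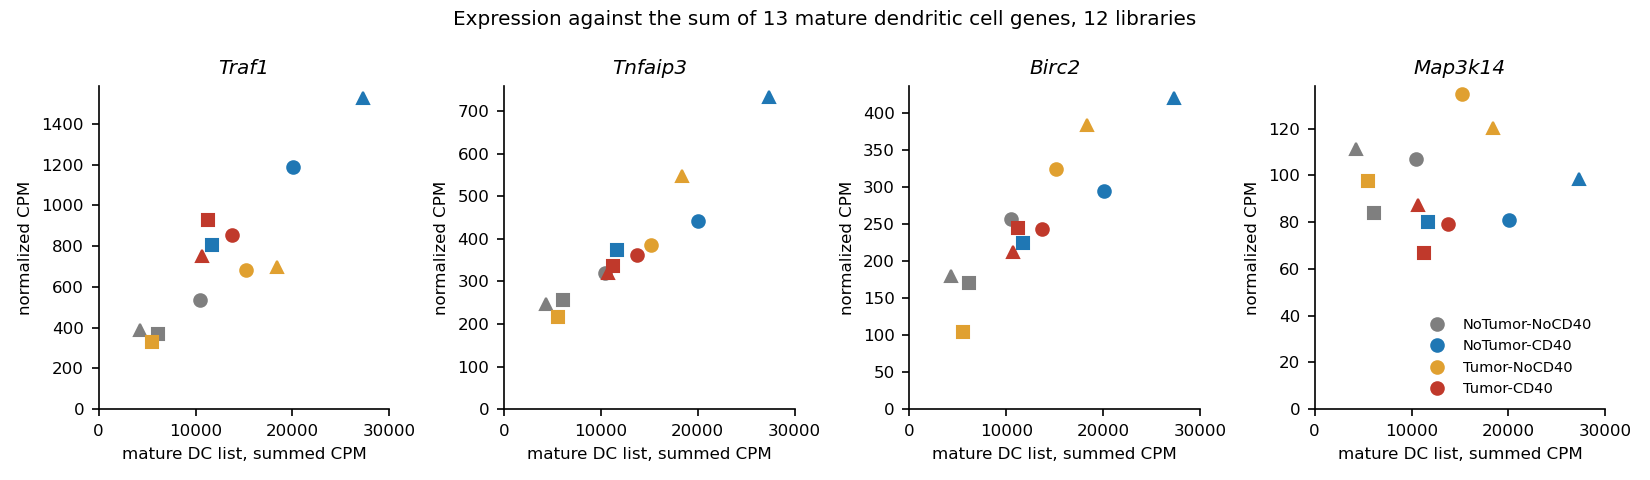
Normalized CPM of Traf1, Tnfaip3, Birc2 and Map3k14 against the summed CPM of the 13 mature dendritic cell genes, with 1 point per library, colored by group and shaped by library number as in the plot of values by library. Tnfaip3 and Birc2 climb with the mature sum across groups, Map3k14 does not, and the 3 Tumor-CD40 libraries of Traf1 (752 to 929 CPM) lie above the 2 Tumor-NoCD40 libraries that have larger sums (683 and 699 CPM).

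Traf1 was the only member called when the agonist effect was averaged over both tumor states, at a log2 fold change of 1.01 ± 0.20 (edgeR adjusted p = 0.018), 1 of 10 members against 2.51% of all genes tested. This call was lost without library 2 of NoTumor-NoCD40 (log2 fold change 0.96, adjusted p = 0.0644), library 3 of NoTumor-NoCD40 (0.98, 0.0601) or library 2 of Tumor-CD40 (0.97, 0.0502), and with limma on log2 TPM (adjusted p = 0.12 to 0.297 over 3 settings). Map3k14 averaged -0.41 ± 0.13 (adjusted p = 0.118), Traf6 0.49 ± 0.16 (0.145) and Traf3 0.41 ± 0.19 (0.281). With Traf1 these made 4 members at an unadjusted p under 0.05, against 17.5% of all genes tested. The median over the members was 0.23, against -0.03 over all genes.

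The difference between the agonist effects with and without a tumor, the interaction, was below 0 for all 10 members but passed the test for none of them, as for 0% of all genes tested. The values for Tnfaip3 (-1.09 ± 0.42, edgeR adjusted p = 0.495), Traf6 (-0.92 ± 0.33, 0.495) and Traf1 (-0.88 ± 0.41, 0.507) had unadjusted p values of 0.0218, 0.014 and 0.0486. These were 3 of 10 members, against 9.8% of all genes. The median over the members was -0.71, against 0.03 over all genes tested. DESeq2 and limma called 0 members in this contrast as well. The interaction uses the same 12 libraries as the 4 pairwise comparisons, and those comparisons share groups with one another, so the signs are not separate pieces of evidence.

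The tumor without the agonist gave no call among the members, and none among all genes tested (0%). Traf6 was the 1 member at an unadjusted p under 0.05, at 0.51 ± 0.23 on the log2 scale (edgeR adjusted p = 0.775), against 5.82% of all genes tested. Tnfaip3 (0.48 ± 0.30), Traf2 (0.46 ± 0.25), Birc2 (0.42 ± 0.36), Traf1 (0.40 ± 0.29) and Traf3 (0.40 ± 0.27) followed, and only Traf5 was below 0 (-0.04 ± 0.18). All 10 members overlapped between the groups, where 4.06% of all genes were apart and higher and 4.92% apart and lower. Without library 3 of Tumor-NoCD40, Tnfaip3 was at 0.14, Birc2 at 0.09, Traf1 at 0.24 and Traf3 at 0.05. The median was 0.40, against -0.01 over all genes. In libraries 1 and 3 of Tumor-NoCD40 the mature list summed to 15176 and 18364 CPM, and in library 2 to 5554 CPM. Library 2 was also lowest in this group for all 10 members. How many of all genes tested were lowest there was not counted, so this does not set the members apart. The plasma cell list was apart and higher with the tumor (86.2 to 106 CPM against 110 to 145 CPM), and the monocyte list apart and lower (521 to 595 CPM against 291 to 476 CPM). Within the plasma cell list, Jchain (2.23 to 6.89 CPM against 10.6 to 61.8 CPM) and Mzb1 were apart and higher. Xbp1 (62.5 to 81.8 CPM against 49.4 to 92.3 CPM) and the other genes were not apart. Within the monocyte list Ccr2 was apart and lower (162 to 283 CPM against 40.8 to 147 CPM). Ly6c2 overlapped, and Fn1 was apart and higher (0.65 to 1.15 CPM against 1.54 to 3.23 CPM). The part of the marker lists in the members' values was not tested.

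With the agonist in both groups, the tumor gave no call among the 10 members either, against 0.199% of all genes tested, and 0 were at an unadjusted p under 0.05, against 9.32%. All 10 were below 0, from -0.61 ± 0.30 for Tnfaip3 (edgeR adjusted p = 0.552) and -0.47 ± 0.29 for Traf1 (0.627) to -0.11 ± 0.16 for Cyld (0.851). Tnfaip3, Birc3 and Traf5 were apart and lower in Tumor-CD40, 3 of 10 members against 6.2% of all genes tested, and none was apart and higher, against 6.68%. Birc3, for example, was at 442, 419 and 613 CPM in NoTumor-CD40 and at 354, 384 and 341 CPM in Tumor-CD40 (-0.45 ± 0.22, adjusted p = 0.552). Without library 3 of NoTumor-CD40, Tnfaip3 was at -0.24, Traf1 at -0.22 and Birc3 at -0.24, and Traf2 (0.09) and Cyld (0.05) were above 0. The median was -0.38, against -0.01 over all genes. The mature list overlapped between these groups, and the B cell list was apart, at 244 to 438 CPM in NoTumor-CD40 and 1059 to 2767 CPM in Tumor-CD40. Also apart and higher in Tumor-CD40 were the lists of plasma cells (63.1 to 110 CPM against 160 to 314 CPM), monocytes (161 to 398 CPM against 426 to 574 CPM) and NK cells (77.2 to 114 CPM against 118 to 155 CPM), and the Langerhans cell list was apart and lower (549 to 935 CPM against 188 to 467 CPM). Mfge8 held most of the Langerhans cell sum and overlapped (365 to 901 CPM against 137 to 430 CPM). Cd207 of that list overlapped too (4.4 to 77.3 CPM against 3.14 to 5.32 CPM), and Epcam was apart and lower (6.52 to 7.57 CPM against 3.88 to 4.93 CPM). Ccr2 of the monocyte list and Klrk1 of the NK cell list also overlapped. The part of these lists in the members' values was not tested. DESeq2 and limma called 0 members in both tumor comparisons.

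Sample titles carry a number at the front that reads like a date, and each such number covers at most 1 library of a group; library 3 of NoTumor-NoCD40 is alone with its number. Among libraries with the same number, Traf1 was 2.18- and 2.21-fold higher with the agonist in the 2 pairs without a tumor. With a tumor it was higher in 3 of 3 pairs, by 1.08- to 2.83-fold. Map3k14 was lower with the agonist in 2 of 2 pairs without a tumor (ratios 0.75 to 0.95) and in 3 of 3 with a tumor (0.59 to 0.73). Traf6 was higher in 2 of 2 pairs without a tumor (1.40 to 1.85) and in 2 of 3 with a tumor (0.75 to 1.46). Tnfaip3 was higher in 2 of 2 (1.38 to 1.46) and in 1 of 3 (0.59 to 1.56).

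Other genes of the pathway were followed in 4 lists of 70 genes, all of which were tested. Without a tumor, 3 of the 70 rose with the agonist and 0 fell, against 1.44% of all genes tested, with a median log2 fold change of 0.18 against -0.04 over all genes. Among 13 receptors that recruit TRAFs, Tnfrsf14 (HVEM, a receptor for LIGHT and BTLA) rose from 19.1 ± 3.88 to 58.8 ± 20.3 CPM (log2 fold change 1.62 ± 0.25, edgeR adjusted p = 0.00758). Cd40 itself was at 246, 200 and 161 CPM without and 479, 280 and 490 CPM with the agonist, which did not pass the test (1.04 ± 0.29, adjusted p = 0.0983). Of 11 NF-kB subunits and inhibitors, 2 rose: Bcl3, a nuclear IkB protein (1.2 ± 0.19, adjusted p = 0.0101), and Nfkbie, the inhibitor IkB-epsilon (0.95 ± 0.21, adjusted p = 0.0401). The median of that list was 0.95. Nfkb2 and Relb, which encode subunits of the non-canonical NF-kB pathway, were at 1.07 ± 0.26 (adjusted p = 0.0561) and 1.09 ± 0.36 (0.149). None of 24 other TRAFs, TRAF partners and ubiquitin-editing genes (median 0.21) and none of 22 downstream kinases (median -0.02) passed.

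With a tumor, 1 of the 70 genes rose with the agonist and 0 fell, against 0.685% of all genes tested. This was Tnfrsf13c, the BAFF receptor of B cells, at 9.34, 3.39 and 3.34 CPM in Tumor-NoCD40 and 35.6, 24.5 and 70.8 CPM in Tumor-CD40 (log2 fold change 3.05 ± 0.50, edgeR adjusted p = 0.0137). The summed B cell markers were higher in the same 3 libraries. The values for Cd40 (0.02 ± 0.29), Nfkb2 (0.20 ± 0.25) and Relb (-0.10 ± 0.36) were near 0. Averaged over tumor states, 5 of the 70 rose and 0 fell, against 2.51% of all genes tested. These were Tnfrsf14 (1.31 ± 0.17, adjusted p = 0.00141), Bcl3 (1.01 ± 0.14, 0.00143), Tnfrsf13c (2.05 ± 0.37, 0.00866), Nfkbie (0.60 ± 0.15, 0.0499) and Jak3, a kinase bound by CD40 (0.62 ± 0.14, 0.0385). In the 2 tumor comparisons and the interaction, 0 of the 70 passed.

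The transcript rows behind each sum were uneven. Traf1-201, a protein-coding row of 2069 bases, held 39.9% of the gene's TPM on average, and 2 short rows, Traf1-209 (386 bases) and Traf1-204 (319 bases), held 29.9% and 18.4%. The long row alone was at 103, 74.2 and 80.1 TPM in NoTumor-NoCD40 and at 246, 173 and 394 TPM in NoTumor-CD40. In the tumor groups Traf1-201 was at 142, 64.6 and 157 TPM without and 173, 206 and 162 TPM with the agonist. For this row the libraries with the agonist were above those without it in both tumor states. The TPM sum over all rows of Traf1 overlapped between the tumor groups, at 312, 188 and 502 TPM without and 391.5, 518 and 388 TPM with the agonist. Birc3 was split over Birc3-201 (36.3%), the nonsense-mediated decay row Birc3-207 (29.1%), Birc3-205 (14.1%) and Birc3-206 (12.6%). Birc3-206 made up 6.05% ± 1.9 in Tumor-NoCD40, against 13.2% ± 3.2 to 15.6% ± 3.8 in the other 3 groups (SD, n = 3), a difference for which no test was run.

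Traf5-205, a protein-coding row of 414 bases, held 55.3% of the TPM of Traf5, and Traf5-202 (976 bases) and Traf5-201 (1964 bases) held 30.04% and 11.8%. For Traf3, 2 long coding rows of nearly equal length, Traf3-202 (6896 bases) and Traf3-201 (7060 bases), traded places between libraries. Traf3-202 ranged from 0% to 64.7% of the TPM of Traf3, and Traf3-201 from 0% to 49.5%. The retained-intron row Traf3-205 was steadier, at 22.4% to 42.6%, and the short row Traf3-204 averaged 14.6%. In contrast, 1 coding row carried most of Traf6 (Traf6-201, 89.1%), Map3k14 (Map3k14-201, 81.8%), Traf2 (Traf2-202, 80.8%), Tnfaip3 (Tnfaip3-202, 75.4%) and Birc2 (Birc2-202, 67.6%). Cyld-206 held 54.2% and Cyld-204 18.0% of the TPM of Cyld. The remaining rows above 10% on average were Traf2-201 (18.1%), Map3k14-202 (14.4%), Tnfaip3-204 (11.04%), Birc2-205 (18.7%) and Cyld-203 (11.6%).

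**Figure D5:**
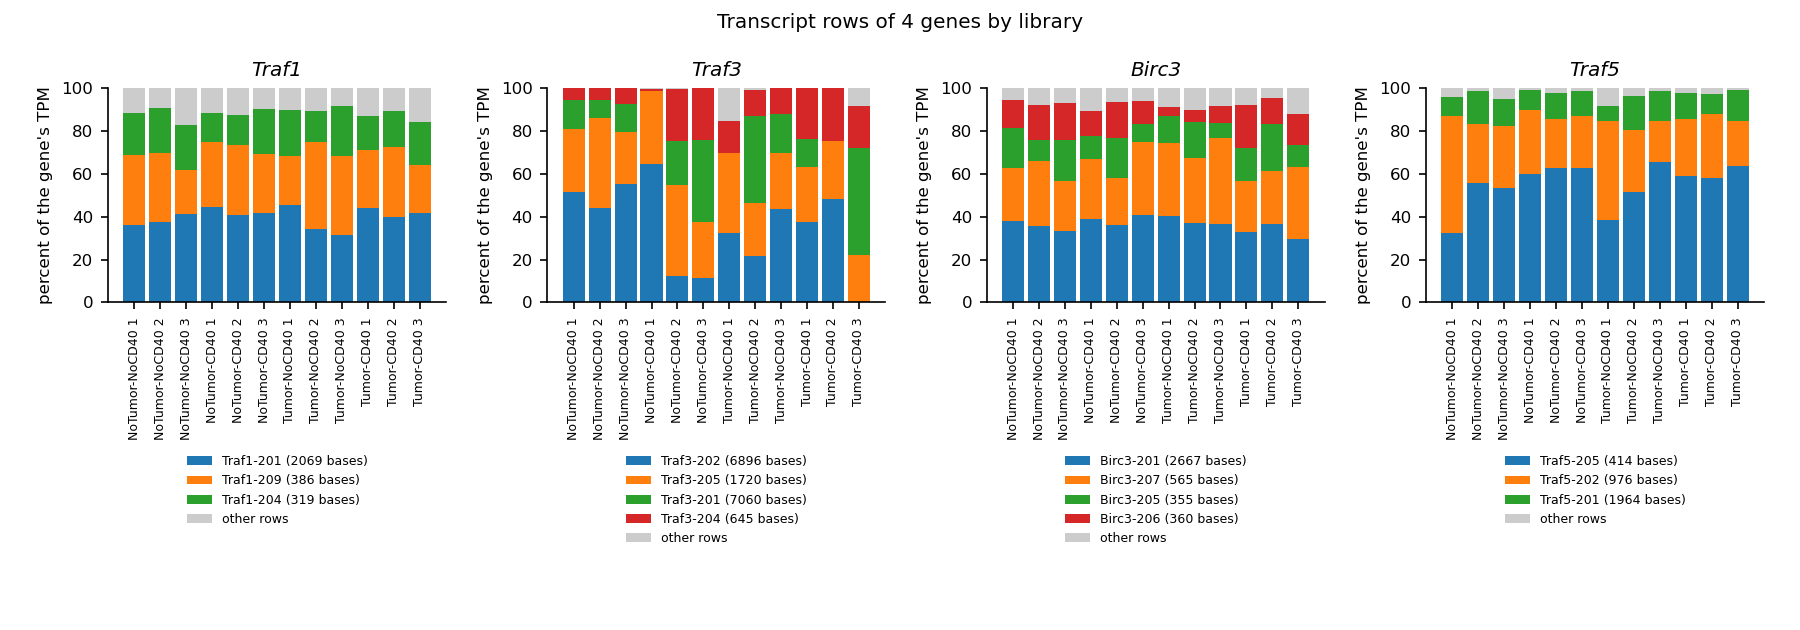
Percent of the TPM of Traf1, Traf3, Birc3 and Traf5 held by each transcript row in each library; colors mark rows with a mean of at least 10%, with their lengths, and gray is the rest. Traf3-202 and Traf3-201 trade places between libraries, and Traf5-205 holds 32.5% to 65.4% of Traf5.

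The genes most like each member over the 12 libraries were found by Pearson's r of log2 CPM, a description over libraries that share groups and depth. For Traf1 they were Arhgap8 (r = 0.986), Nfkbie (0.982) and Katna1 (0.98). For Traf6 they were Runx2 (0.981), Vwa5a (0.979) and Myo1g (0.977). For Traf3 they were Dusp2 (0.975), Lnx2 (0.97) and Csrnp1 (0.967). For Traf2 they were Rspry1 (0.959), Bag3 (0.955) and Rassf2 (0.948). Tnfaip3 was nearest to Arhgap31 (0.987), Cttnbp2nl (0.982) and Ccng2 (0.981). Birc2 was nearest to Spred1 (0.979), Gbp4 (0.972) and Etv3 (0.971), and Birc3 to Gm45062 (0.97), Ppp1r15a (0.969) and Fam13b (0.964). Cyld was nearest to Llgl2 (0.956), Erbb2 (0.948) and Bcl2l1 (0.935). Map3k14 was nearest to Gm9967 (0.917), Gm45477 (0.9) and Map4k4 (0.885), and Traf5 to Gm22571 (0.885), Slc27a6 (0.817) and Gm37764 (0.806). The lowest of these values belonged to Map3k14 and Traf5, the 2 members whose highest library was not the third of NoTumor-CD40.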

How the data were processed

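Deposited by the authors were: expected counts (estimated reads of each transcript, not normalized) and TPM (scaled by transcript length, with the same total in every library). Per the submitters' processing notes, reads were quantified with Salmon against mm10; its version and the annotation release are not given in the sources used here. RNA extraction used a Qiagen RNeasy Plus Micro kit and library preparation a NEBNext Ultra II Directional kit, per the labels' protocols. Salmon shares reads among transcripts that overlap, so values of single transcript rows are less certain than gene sums.

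With the GENCODE M21 annotation, 136176 transcripts were summed to 53458 genes; the other 112 held 0.0279% to 0.0457% of a library's counts and were left out. Counts were rounded to whole numbers. In R 4.3.3, edgeR 4.0.16 was used with TMM factors (0.936 to 1.07), a filter on low counts by group (minimum count 10, minimum total 15) that left 18095 genes, 1 model of all 12 libraries with 4 group means, leaving 8 residual degrees of freedom, two-sided quasi-likelihood F tests with legacy = FALSE, and Benjamini-Hochberg adjustment over all genes with a threshold of 0.05. The common biological coefficient of variation was 58.4%. CPM are counts scaled to the normalized library size, and ± is the SD (n = 3) for levels and the SE for log2 fold changes. The scripts were tested on simulated data made from these libraries.

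All 10 members are named. Pathway genes named are Cd40, Nfkb2, Relb and up to 8 past the threshold per comparison by lowest p; transcript rows named hold at least 10% of the gene's TPM on average; likeness gives the 3 genes with the highest r. The members and lists were chosen with earlier results of these data known. Alternatives were DESeq2 1.42.0, other size factors, no filter, limma 3.58.1 (voom on counts; trend on log2(TPM + 1) or log2(TPM + 0.1), with genes of at least 1 TPM in 3 libraries or no filter), legacy = TRUE, only the groups compared, the title number as a block, and each library left out.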

Additional observations from a re-analysis of the deposited data

How the results depend on the processing

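Of the 6 counts of members past the threshold, 4 were 0 under all settings tried (agonist with tumor, both tumor comparisons and the interaction); the fit on only the groups compared cannot be made for the interaction and the average. For the agonist without tumor, the count of 1 (Traf1) became 2 with DESeq2 and 2 without the filter on low counts, each adding Traf6 (adjusted p = 0.00792 and 0.0417). It became 0 with limma-trend on log2(TPM + 1), 0 on log2(TPM + 0.1) and 0 without a TPM filter (Traf1 adjusted p = 0.127, 0.119 and 0.281). Leaving out single libraries gave counts from 0 to 3, and a log2 fold change of Traf1 from 1.21 to 1.67. For the averaged agonist effect, the count of 1 became 0 in the same 3 limma-trend fits (Traf1 adjusted p = 0.125, 0.12 and 0.297) and ranged from 0 to 1 when single libraries were left out. The cause of these changes was not tested.

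Title numbers did not pair the libraries by the rule used, which asks for a correlation over 0.1 in every pair: deviations from group means correlated at 0.004 to 0.228 over 15 pairs with the same number (median 0.063) and at -0.19 to 0.088 over 39 others. With that number as a replicate block, the count without tumor was 0 (Traf1 1.25, adjusted p = 0.086) and the averaged call was kept (Traf1 0.96, adjusted p = 0.0145).

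Of 60 log2 fold changes of single members, 14 changed sign in at least 1 alternative, none of them past the threshold. For the agonist with tumor, limma-trend on log2(TPM + 1), log2(TPM + 0.1) and without a filter gave 0.062, 0.064 and 0.062 for Traf5, 0.047, 0.047 and 0.047 for Birc3 and 0.059, 0.064 and 0.059 for Birc2. For the tumor without agonist they gave 0.063, 0.065 and 0.063 for Traf5, and the replicate block gave 0.010 for Traf5 and -0.003 for Birc3. With single libraries left out, the agonist with tumor ranged from -0.31 to 0.051 for Traf2, -0.22 to 0.40 for Traf3, -0.16 to 0.18 for Traf6, -0.60 to 0.13 for Birc2, -0.46 to 0.18 for Tnfaip3 and -0.082 to 0.10 for Cyld. Traf5 ranged from -0.018 to 0.20 for the agonist without tumor, -0.16 to 0.036 for the tumor without agonist and -0.059 to 0.05 for the average. For the tumor with agonist, Traf2 ranged from -0.39 to 0.092 and Cyld from -0.21 to 0.05.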
